A study of Mus musculus with 12 samples.

Results

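The SOXB and SOXC transcription factor genes were examined in chromatin of cortical interneurons (CINs) and of the other cells of the neonatal mouse cortex (non-CINs). These are 8 of the 21938 protein-coding genes measured, chosen by subgroup membership and not by any value: *Sox1*, *Sox2* and *Sox3* of SOXB1, *Sox14* and *Sox21* of SOXB2, and *Sox4*, *Sox11* and *Sox12* of SOXC. Cortices were taken at postnatal day 2 from pups heterozygous for *Gad67-GFP*, in which GFP from the *Gad67* locus marks GABAergic cells, and the tissue of several litters was pooled for each sample. CINs were the GFP+ and non-CINs the GFP- cells from flow sorting, so that non-CINs are a mixture of glutamatergic neurons, glia and other cells, and both groups carry the same allele. Native ChIP, in which chromatin is not cross-linked, was performed for H3K27ac and H3K27me3 with 2 biological replicates of each population, which gives 8 peak lists, and 4 input samples served as controls in peak calling.

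SOX proteins bind DNA through an HMG box, and members of a subgroup share a nearly identical box. SOXB1 proteins keep neural progenitors undifferentiated, often together with POU proteins, SOXB2 proteins counteract them as repressors, and SOXC proteins act later, in neurons that are leaving the cell cycle and maturing. H3K27ac marks active promoters and enhancers, whereas H3K27me3 is laid down by Polycomb complexes at silent or poised developmental genes.

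Each gene was read in a window from 5 kb upstream of its transcription start site (TSS) to the end of the gene (mm10 coordinates, GENCODE vM21 basic). The value for a list is the number of bp of the window under peaks, and the strength of the strongest peak is its fold enrichment expressed as a percentile of its own list. All 8 genes have a transcript of 1 exon, and *Sox12* also has one of 2 exons. Other annotated transcripts lie in several windows, among them *Sox1ot*, *Sox2ot* and the antisense gene *Gm14662* at *Sox3*, and peaks cannot be assigned between them and the *Sox* gene. A member was counted as higher in a population where both of its lists exceeded both lists of the other. The exact two-sided permutation test across 4 lists cannot give a *p* below 0.333, so no such difference can pass 0.05, and each count is set beside the share of all coding genes that met the same rule.

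The 8 genes ranged from H3K27ac alone through both marks to H3K27me3 alone, and 3 promoters are shown as examples of what was called there. These are the 250 bases upstream of the RefSeq start (GRCm38.p6), 5′ to 3′ in the direction of transcription, with CpG dinucleotides in capitals. The *Sox2* promoter (chr3:34649745-34649994, plus strand) met H3K27ac peaks in 4 lists and H3K27me3 peaks in 0 of 4. The *Sox11* promoter (chr12:27342719-27342968, minus strand) also met H3K27ac in 4 lists and H3K27me3 in 0. The *Sox14* promoter (chr9:99876171-99876420, minus strand) met H3K27me3 in 4 lists and H3K27ac in 0.
Sox2: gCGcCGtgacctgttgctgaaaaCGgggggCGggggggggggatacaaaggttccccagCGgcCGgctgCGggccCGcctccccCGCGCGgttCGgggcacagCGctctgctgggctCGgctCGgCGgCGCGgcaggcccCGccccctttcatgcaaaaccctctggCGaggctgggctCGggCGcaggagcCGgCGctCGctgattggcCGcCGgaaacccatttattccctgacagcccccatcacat
Sox11: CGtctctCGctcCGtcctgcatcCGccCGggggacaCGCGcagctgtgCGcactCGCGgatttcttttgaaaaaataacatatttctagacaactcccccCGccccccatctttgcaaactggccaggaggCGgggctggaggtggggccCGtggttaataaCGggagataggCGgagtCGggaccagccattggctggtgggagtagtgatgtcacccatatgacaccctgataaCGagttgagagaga
Sox14: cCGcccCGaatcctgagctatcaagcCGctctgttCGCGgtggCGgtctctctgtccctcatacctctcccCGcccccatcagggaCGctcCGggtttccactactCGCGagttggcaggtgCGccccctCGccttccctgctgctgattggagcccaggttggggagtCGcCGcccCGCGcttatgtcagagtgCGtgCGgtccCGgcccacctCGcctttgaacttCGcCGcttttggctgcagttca
CpG dinucleotides were frequent in all 3. Over 300 bases reaching 50 bases past the start, there were 27 at *Sox2*, 21 at *Sox11* and 26 at *Sox14*, against a median of 7 over 32851 RefSeq promoters. At least 21 CpG were found in 24.8% of those promoters. RefSeq promoters were matched for 7 members.

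**Figure D1:**
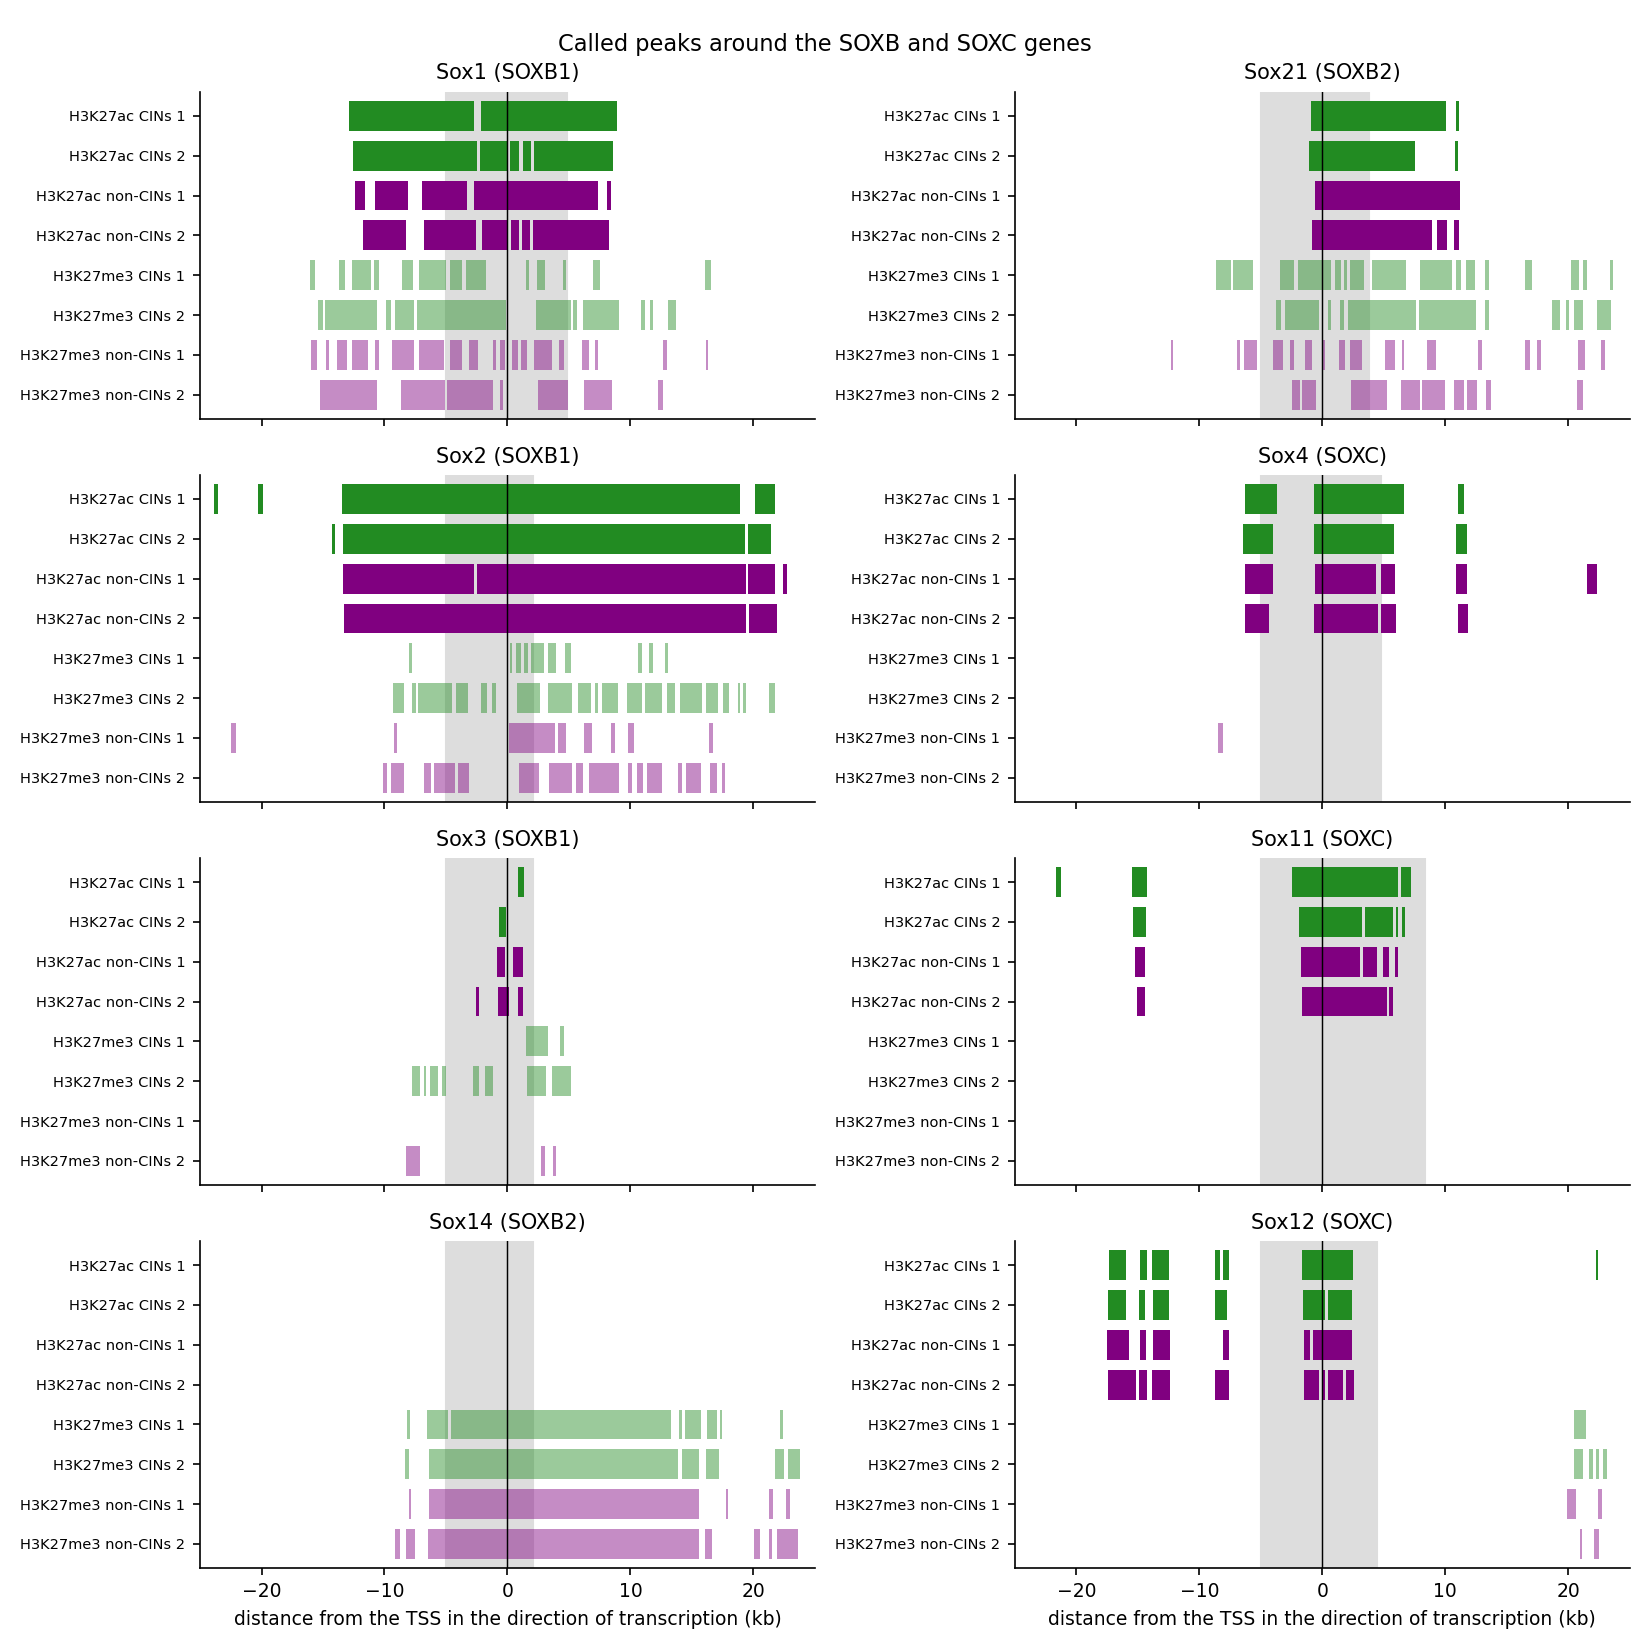
Called peaks within 25 kb of the TSS of each gene, with distance in kb along the direction of transcription and 1 row for each of the 8 lists (green CINs, purple non-CINs, pale colours H3K27me3, grey the window). H3K27ac covered at least 95.8% of the *Sox2* window and H3K27me3 at least 96.9% of that of *Sox14* in each list, and no H3K27me3 peak entered the windows of *Sox4*, *Sox11* and *Sox12*.

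H3K27ac peaks were found in all 4 lists at 7 of the 8 genes, as at 56.8% of coding genes. The exception, *Sox14*, had no H3K27ac peak in any list, as had 33.1% of coding genes. H3K27me3 peaks were found in all 4 lists at *Sox1*, *Sox2*, *Sox14* and *Sox21*, 4 members of 8 against 21.1% of coding genes. The 3 SOXC genes had no H3K27me3 peak in any list, as had 59.2% of coding genes. H3K27me3 was thus called at each SOXB gene in at least 1 population and in the window of no SOXC gene.

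The SOXB1 gene *Sox2* (chr3:34650405-34652461, plus strand), which sustains neural stem cells, lay in the broadest H3K27ac domain of the 8 genes. Its 7057 bp window was covered by 7057 bp of H3K27ac in both CIN lists, by 6762 bp in non-CIN replicate 1 and by 7057 bp in non-CIN replicate 2. The populations overlapped, and the window was filled or nearly filled in all 4 lists. The peak over the TSS was 32.4 and 32.7 kb long in CINs and 21.8 and 32.7 kb long in non-CINs, and it was the longest H3K27ac peak of the whole list in both CIN replicates. Its strength stood at percentiles 99.2 and 98.9 in CINs compared with 99.5 and 99.6 in non-CINs, all near the top of lists of unequal size.

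H3K27me3 was also called at *Sox2*, inside the acetylated domain. It covered 1131 and 3626 bp in CINs compared with 1965 and 2717 bp in non-CINs, and every base of it in the window lay under an H3K27ac peak of the same population and replicate. The CIN values lay on both sides of the non-CIN values. No H3K27me3 peak reached the TSS in any list.

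*Sox1* (chr8:12395295-12400126, plus strand), which has the same progenitor role, showed the same combination with more H3K27me3. H3K27ac covered 9225 and 8785 bp of the 9832 bp window in CINs compared with 9311 and 8538 bp in non-CINs, with strengths at percentiles 93.4 and 91.1, and 91.7 and 95.6. Neither the extent nor the strength separated the populations, although with a window from 10 kb upstream the extents did, with a mean difference of 1352.5 bp and both CIN lists higher. H3K27me3 covered 3707 and 7315 bp in CINs compared with 5211 and 6322 bp in non-CINs, again with the wider spread between the CIN replicates. At both *Sox1* and *Sox2*, replicate 2 had more H3K27me3 covered than replicate 1 in each population. The replicate 2 lists were also longer in total, at 44.2 against 34.5 Mb in CINs and 49.8 against 39.4 Mb in non-CINs. Scaled to the list total, the order was reversed at *Sox1* in non-CINs (5553 bp in replicate 1, 5332 bp in replicate 2) and otherwise kept. At a −log10 *q* of at least 4, no H3K27me3 was left at *Sox1* in CIN replicate 1.

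The third SOXB1 gene, *Sox3* (chrX:60891366-60893430, minus strand), had little of either mark and was the member whose marks differed in opposite directions. H3K27ac covered 459 and 555 bp in CINs compared with 1570 and 1645 bp in non-CINs, means of 507 ± 67.9 and 1608 ± 53.0 bp (SD, n = 2). Both non-CIN lists were above both CIN lists, and the strongest peak also stood higher in non-CINs (percentiles 53.2 and 42.0) than in CINs (35.0 and 30.8). *Sox3* was the only member with more H3K27ac covered in non-CINs, 1 of the 7 with a peak, against 18.0% of the 14672 coding genes with an H3K27ac peak. H3K27me3 covered 587 and 1677 bp in CINs and 0 bp in both non-CIN lists. The longest CIN peaks lay over the end of the gene and beyond it, and no base of *Sox3* was under both marks. The CIN peak of replicate 1 was absent for each mark at a −log10 *q* of at least 4, which left 1 CIN list with a peak for H3K27ac and 1 for H3K27me3.

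The SOXB2 genes were unlike each other. *Sox14* (chr9:99874106-99876170, minus strand), a factor of GABAergic neurons of the thalamus and midbrain, had the most complete H3K27me3 cover, with 6846 and 7065 bp of its 7065 bp window in CINs and 7065 bp in both non-CIN lists. Its longest peak spanned 17.9 and 20.3 kb in CINs and 22.0 and 22.1 kb in non-CINs, and its strength lay between percentiles 99.5 and 99.8 in the 4 lists. *Sox14* was therefore under H3K27me3 to nearly the same extent in both populations, with H3K27me3 over the TSS in 4 lists.

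*Sox21* (chr14:118233232-118237030, minus strand), which opposes SOXB1 proteins in progenitors, carried both marks. H3K27ac covered 4735 and 4862 bp of its 8799 bp window in CINs compared with 4390 and 4668 bp in non-CINs, a mean difference of 269.5 bp. The CIN lists were both above the non-CIN lists in extent, by less than the spread of either pair, but the strongest peak stood at percentiles 81.6 and 92.2 in CINs compared with 93.6 and 98.1 in non-CINs, which is the opposite order. Scaled to the total length of each list, the extents of H3K27ac overlapped. H3K27me3 covered 5570 and 5369 bp in CINs compared with 3322 and 3180 bp in non-CINs, means of 5470 ± 142 and 3251 ± 100.4 bp (SD, n = 2). Every CIN value was above every non-CIN value by more than the spread of either pair, and the order was the same when scaled to the list total, but the strength of the strongest peak overlapped (77.4 and 92.0 in CINs, 86.7 and 86.7 in non-CINs).

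*Sox3* and *Sox21* were thus the members with more H3K27me3 covered in CINs, 2 of the 5 with a peak, against 7.34% of 8941 coding genes with an H3K27me3 peak. *Sox3* was not among them at a −log10 *q* of at least 4 or with a window from 10 kb upstream, which left 1. No member had more H3K27me3 covered in non-CINs, against 11.1% of coding genes. By strength of the strongest H3K27me3 peak, 1 member, *Sox3*, was higher in CINs and 0 in non-CINs, against 9.62% and 13.8% of coding genes.

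The SOXC genes carried H3K27ac alone, over the TSS in 4 lists each. *Sox11* (chr12:27334264-27342574, minus strand), the SOXC factor known for high levels in newly formed neurons, had more H3K27ac covered in CINs. H3K27ac covered 9431 and 7869 bp of its 13311 bp window in CINs compared with 6663 and 7195 bp in non-CINs, means of 8650 ± 1104.5 and 6929 ± 376 bp (SD, n = 2). Both CIN lists were higher, although the gap of the nearest pair was smaller than the spread of the CIN replicates. The mean difference of 1721 bp was 2768 bp in replicate 1 alone and 674 bp in replicate 2 alone. The strongest peak also stood higher in CINs (percentiles 89.9 and 93.3) than in non-CINs (86.0 and 83.0). In the map of called peaks, the *Sox11* peak over the TSS reached further upstream in both CIN lists (to −2472 and −1922 bp) than in the non-CIN lists (to −1706 and −1666 bp), while its downstream ends overlapped.

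*Sox4* (chr13:28948919-28953713, minus strand), its close relative with an overlapping role in neuronal differentiation, showed the same order in a smaller measure. H3K27ac covered 6807 and 6448 bp of its 9795 bp window in CINs compared with 5990 and 5838 bp in non-CINs, means of 6628 ± 254 and 5914 ± 107 bp (SD, n = 2). The CIN lists were both higher, but the strength of the strongest peak did not separate the populations (97.6 and 93.3 in CINs, 95.0 and 93.6 in non-CINs). Within 2 kb of the TSS the extents overlapped, at 2674 and 2651 bp in CINs compared with 2608 and 2656 bp in non-CINs.

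*Sox12* (chr2:152393611-152398063, minus strand), the third SOXC gene, had the shortest domain of the subgroup. H3K27ac covered 4159 and 3718 bp of its 9453 bp window in CINs compared with 3661 and 3321 bp in non-CINs, a mean difference of 447.5 bp. The CIN lists were both higher, by a gap between the nearest lists that was smaller than the spread within either pair, and the strongest peak also stood higher in CINs (87.7 and 80.6) than in non-CINs (75.9 and 70.3). With peaks 500 bp or less apart merged, the extents overlapped.

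More H3K27ac was thus covered in CINs at *Sox21* and at the 3 SOXC genes, 4 of the 7 members with a peak, against 18.1% of coding genes, but with bp scaled to the total length of each list only *Sox11* kept this order, while *Sox21*, *Sox4* and *Sox12* overlapped. With that scaling 1 of the 7 was higher in CINs and 1, *Sox3*, in non-CINs, against 16.9% and 19.2% of coding genes. The labels do not say what equal replicate numbers mark. Between same-numbered lists, scaled bp were higher in CINs both times at *Sox4* (5790 against 5688, 7561 against 6356) and *Sox12* (3538 against 3476, 4360 against 3616). At *Sox21* they were higher in CINs in replicate 2 only (4028 against 4169, 5701 against 5082). By strength of the strongest peak, *Sox11* and *Sox12* were higher in CINs and *Sox2*, *Sox3* and *Sox21* in non-CINs, against 20.8% and 15.6% of coding genes, with all *Sox2* values close to the ceiling. The median difference over the 7 members was 269.5 bp, against 13.5 bp over all coding genes with an H3K27ac peak, and the members had a median of 58.5% of the window covered, against 5.02%. For H3K27me3 the difference was 37.5 bp over 5 members, against −94.5 bp, with medians of 49.6% and 2.21% covered. *Sox3* and *Sox11* were the members whose H3K27ac order was the same under each of the 8 other settings that used all lists.

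**Figure D2:**
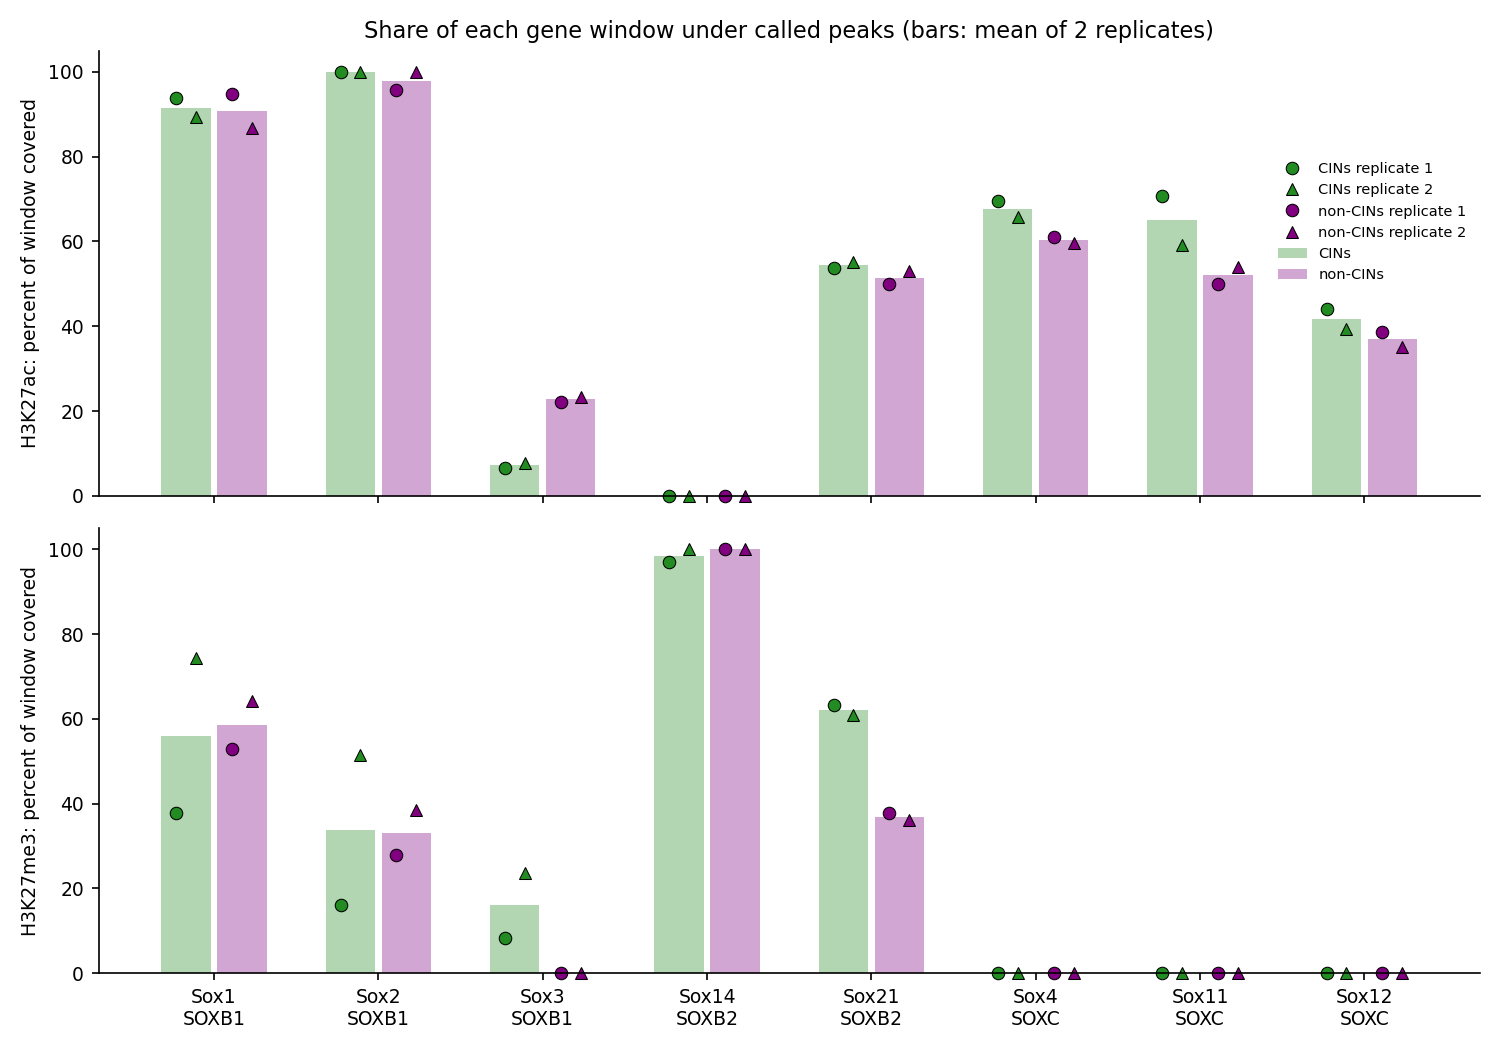
Percent of each gene window under H3K27ac (top) and H3K27me3 (bottom) peaks, with bars for the mean of 2 replicates and a point for each list. CINs lay above non-CINs for H3K27ac at *Sox21* and the SOXC genes in bp as listed (only at *Sox11* when scaled to the list total), below them at *Sox3*, and above them for H3K27me3 at *Sox3* and *Sox21*.

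The extent of each mark was then ranked among genes with windows of like size. Of the 6747 coding genes with windows no longer than 13311 bp, the longest among the members, 2 were covered by H3K27ac at least as fully as *Sox2*, counting *Sox2* itself. The same count was 7 at *Sox1*, 29 at *Sox4*, 39 at *Sox11*, 60 at *Sox21* and 171 at *Sox12*, but 1245 at *Sox3*. For H3K27me3 it was 78 at *Sox14*, 280 at *Sox1*, 330 at *Sox21* and 472 at *Sox2*, but 930 at *Sox3*. *Sox3* was thus the least covered of the members that carried each mark.

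Both marks lay over the same bases at *Sox1*, *Sox2* and *Sox21*, and at no SOXC gene. This was so in both CIN replicates for 3 of 8 members, against 2.69% of coding genes, and in both non-CIN replicates for the same 3, against 1.71%. At a −log10 *q* of at least 4 the CIN count was 2, without *Sox1*. At *Sox1* the shared length was 3100 and 7071 bp in CINs compared with 4811 and 5793 bp in non-CINs. At *Sox21* it was 3477 and 3011 bp in CINs compared with 1580 and 1821 bp in non-CINs, so that both CIN lists were higher. Each population holds many cells and several cell types, and marks on the same bases in one cell and marks in different cells cannot be told apart.

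**Figure D3:**
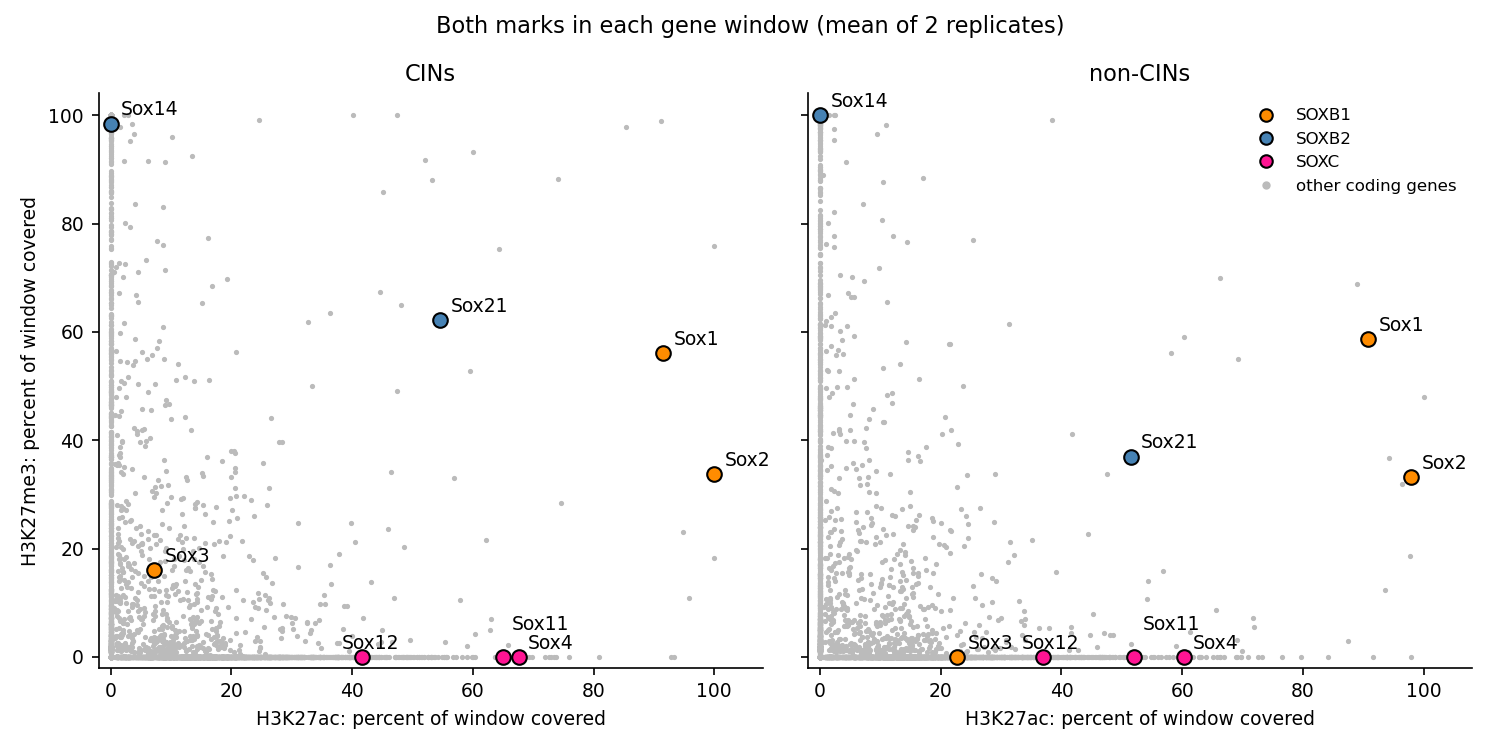
Percent of the gene window under H3K27ac (horizontal) and H3K27me3 (vertical) in CINs (left) and non-CINs (right), as the mean of 2 replicates, for the 6747 coding genes with windows no longer than those of the members (grey) and for the 8 members (coloured by subgroup). *Sox14* lies at the top left, the SOXC genes lie on the horizontal axis, and *Sox1*, *Sox2* and *Sox21* lie away from both axes.

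H3K27ac regions of one population only were then sought within 200 kb of each TSS. Such a region was a stretch of merged peaks that met no peak of the other population in the list of the same replicate number and that recurred in both replicates. There were 13 CIN-only regions, of 4182 in the series, and 3 non-CIN-only regions, of 2775. Where only an overlap of 50% of both peaks counted as shared, the numbers were 10 and 9. At least 1 CIN-only region was found for 5 of 8 members, against 36.6% of coding genes, and at least 1 non-CIN-only region for 3 of 8, against 34.7%. *Sox3*, *Sox21* and *Sox12* had neither.

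The strongest region of each of 5 members is shown, as these were the most strongly enriched regions of one population by the weaker of their lists. The sequences are the central 200 bases on the plus strand of mm10, read from GRCm38.p6, and capitals mark TAATTA, a core bound by DLX and other homeodomain proteins, or ACAATG, the reverse complement of the SOX core CATTGT. The CIN-only ones are chr8:12214416-12214615 near *Sox1*, chr3:34504627-34504826 near *Sox2*, chr9:99954493-99954692 near *Sox14* and chr12:27248206-27248405 near *Sox11*, and the non-CIN-only one is chr13:28927332-28927531 near *Sox4*.
Sox1: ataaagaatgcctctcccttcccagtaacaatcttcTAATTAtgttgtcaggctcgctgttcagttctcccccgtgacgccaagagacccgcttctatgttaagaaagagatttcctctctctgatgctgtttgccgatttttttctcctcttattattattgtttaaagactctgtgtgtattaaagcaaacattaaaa
Sox2: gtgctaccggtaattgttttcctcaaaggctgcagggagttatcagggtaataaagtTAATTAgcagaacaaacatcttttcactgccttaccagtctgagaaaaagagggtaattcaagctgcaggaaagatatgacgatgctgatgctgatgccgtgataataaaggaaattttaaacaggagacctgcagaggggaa
Sox14: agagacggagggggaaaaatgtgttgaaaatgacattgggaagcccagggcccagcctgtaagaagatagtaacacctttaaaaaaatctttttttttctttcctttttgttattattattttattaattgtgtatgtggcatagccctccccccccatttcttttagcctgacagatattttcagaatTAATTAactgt
Sox11: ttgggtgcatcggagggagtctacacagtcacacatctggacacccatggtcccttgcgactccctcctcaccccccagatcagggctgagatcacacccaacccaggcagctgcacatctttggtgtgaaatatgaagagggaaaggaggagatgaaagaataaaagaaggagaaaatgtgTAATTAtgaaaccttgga
Sox4: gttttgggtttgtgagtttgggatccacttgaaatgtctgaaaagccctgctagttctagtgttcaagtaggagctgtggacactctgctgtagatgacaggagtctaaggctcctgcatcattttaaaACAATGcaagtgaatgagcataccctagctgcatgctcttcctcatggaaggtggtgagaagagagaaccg

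*Sox1* had 6 CIN-only regions, a number reached by 0.447% of coding genes, and 5 of them lay upstream, between 47.5 and 180.2 kb from the TSS. The strongest, 180.2 kb upstream and intergenic, stood at percentiles 80.9 (CIN replicate 1) and 60.3 (CIN replicate 2) and met an H3K27me3 peak in non-CIN replicate 2. The region 66.5 kb upstream stood at 83.6 and 54.8 and met H3K27me3 peaks in CIN replicate 2 and non-CIN replicate 2. The weakest of the 6, 96.2 kb upstream, was 200 bp long and stood at 13.9 and 54.3. For 4 of the upstream regions another coding gene, *A230072I06Rik*, lay nearer than *Sox1*, and the downstream region at 170 kb lay nearest to *Spaca7*. A non-CIN-only region lay closer to the TSS than any of the 6, 44.2 kb downstream, at percentiles 53.4 and 34.4. Its nearest coding gene was *Sox1*.

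*Sox2* had 4 CIN-only regions, all upstream and within the long noncoding gene *Sox2ot*, at distances of 145.2, 168.3, 191.6 and 193 kb. The nearest stood at percentiles 54.3 and 35.0. The farthest pair shared 1 merged peak of CIN replicate 1 and are not independent. A non-CIN-only region lay closer, 66.2 kb upstream, and was weak, at percentiles 13.1 and 10.5.

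*Sox14* had a CIN-only region 77.7 kb upstream, at percentiles 57.2 and 36.8, although its own window held no H3K27ac. H3K27me3 peaks met this region in the replicate 2 lists of both populations. *Sox11* had a CIN-only region 93.7 kb downstream, at 72.8 and 16.4. *Sox4* had a CIN-only region 127.7 kb upstream, at 15.6 and 45.9, and a non-CIN-only region 26 kb downstream, at 27.6 and 48.3. In all, 11 of the 13 CIN-only regions lay upstream, 7 lay between genes, 4 in introns and 2 over exons of noncoding genes, and for 8 of 13 the member was the nearest coding gene. None of the 13 met a non-CIN peak of the other replicate number either.

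The central 200 bp of each region was searched on both strands for 4 cores, none of which contains another. TAATTA was present in 4 of the 13 CIN-only regions, those of *Sox1*, *Sox2*, *Sox14* and *Sox11* whose sequences are given, and in 10.9% of 4181 CIN-only regions of the series, 1 region outside the named chromosomes being left out. CTTTGT, the other SOX core, occurred in 2 of 13 and in 27.4% of the series. CATTGT was present in 0 of 13 against 14.8%, and the POU octamer ATGCAAAT in 0 of 13 against 2.70%. Of the 3 non-CIN-only regions, those of *Sox2* and *Sox4* held CATTGT and that of *Sox2* held CTTTGT, against 10.3% and 20.6% of non-CIN-only regions of the series. None of the 3 held TAATTA or ATGCAAAT, against 3.89% and 1.23%. A match describes the letters and is not evidence of binding.

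**Figure D4:**
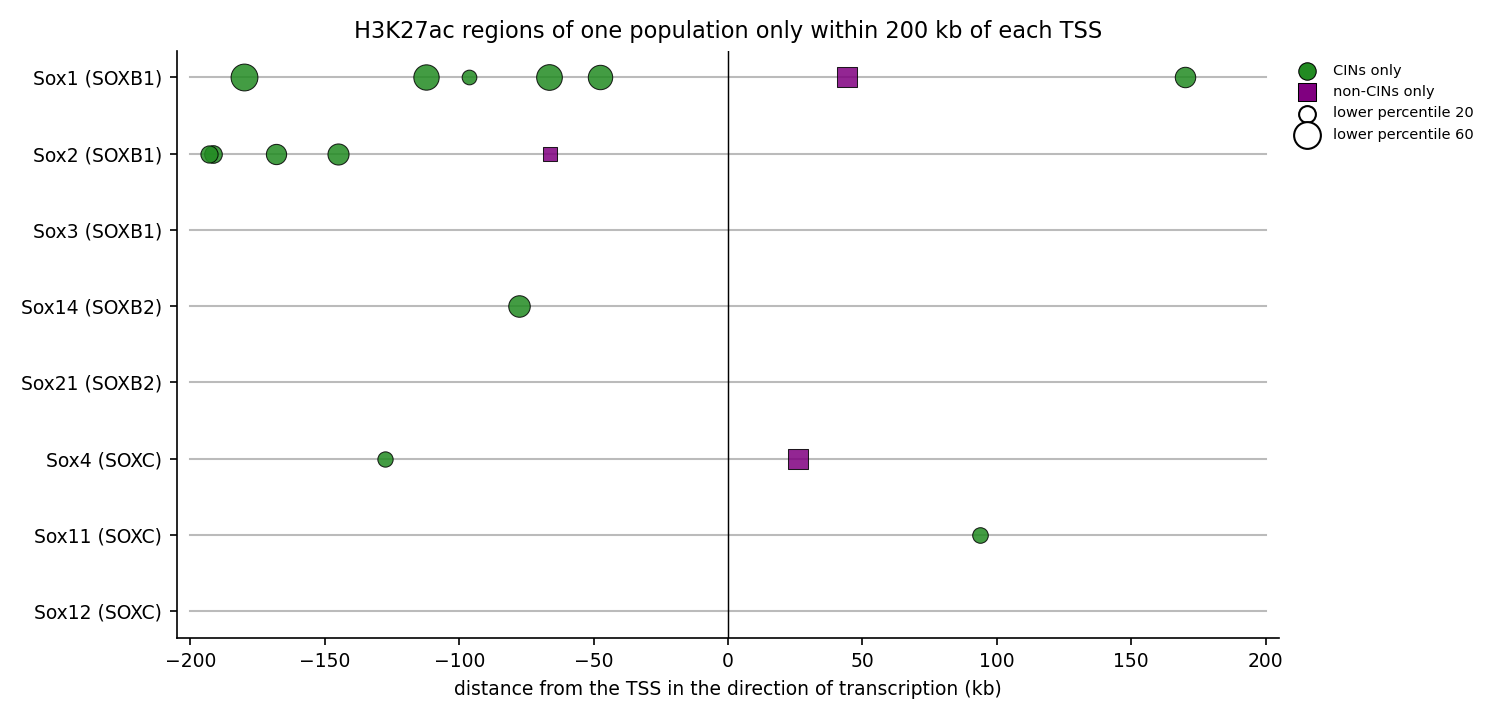
Distance in kb from the TSS, along the direction of transcription, of each H3K27ac region found in CINs only (green circles, 13) or non-CINs only (purple squares, 3), with larger symbols for a higher percentile in the weaker of its 2 lists. The *Sox1* and *Sox2* regions lie mostly upstream, and *Sox3*, *Sox21* and *Sox12* have none.

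The rest of the *Sox* family and the partners and targets of these factors were read in the same way. Of 11 other *Sox* genes, 9 had an H3K27ac peak, and 1, the endothelial gene *Sox18*, had more covered in CINs, with 842 and 366 bp against 0 bp in both non-CIN lists, while none had more in non-CINs (18.1% and 18.0% of coding genes). By strength, *Sox13* and *Sox18* were higher in CINs and *Sox5*, *Sox6* and *Sox9* in non-CINs (20.8% and 15.6% of coding genes). *Sox9*, which drives glial fate, had 6849 and 6381 bp in CINs compared with 6378 and 7443 bp in non-CINs, which overlap, but its strongest peak stood higher in non-CINs (95.6 and 97.3) than in CINs (77.5 and 89.5). An H3K27me3 peak was found at 9 of the 11, with more covered in CINs at *Sox13* and *Sox7* and in non-CINs at *Sox30*, against 7.34% and 11.1% of coding genes. Of the 4 class III POU genes, whose proteins pair with SOXB1, 3 had an H3K27ac peak and 3 an H3K27me3 peak. *Pou3f4* had more H3K27ac covered in CINs (7447 and 7262 bp against 5824 and 6805 bp), against 18.1% of coding genes. *Pou3f3* had more H3K27me3 covered in non-CINs (5043 and 4059 bp against 2174 and 3554 bp), against 11.1% of coding genes. Both overlapped by strength, and *Pou3f2* was higher in non-CINs by strength of H3K27ac (15.6% of coding genes).

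Of 4 target genes, the neuronal SOXC targets *Tubb3* and *Dcx* had more H3K27ac covered in CINs, and the progenitor gene *Nes*, a SOXB1 target, had more in non-CINs, against 18.1% and 18.0% of coding genes. *Dcx* had 10085 and 6022 bp in CINs compared with 217 and 1351 bp in non-CINs, whereas *Nes* had 3962 and 3560 bp against 4814 and 4832 bp. The strength of the strongest peak overlapped at *Nes*, at percentiles 98.1 and 79.7 in CINs compared with 85.3 and 87.9 in non-CINs. The extents at *Tead2* overlapped, and its strongest peak stood higher in CINs. *Tubb3* also had more H3K27me3 covered in non-CINs (11.1% of coding genes), but overlapped by strength.

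The sort was checked against defining markers. Of 6 CIN markers, 5 had more H3K27ac covered in CINs and more H3K27me3 in non-CINs (*Gad1*, *Gad2*, *Dlx1*, *Dlx2* and *Slc32a1*, against 18.1% and 11.1% of coding genes), and *Lhx6* had no H3K27ac peak in any list. All 6 had H3K27me3 peaks in all 4 lists, so the mark was also called in CINs. H3K27me3 covered 97.6% and 98.1% of the *Dlx1* window in CINs, compared with 100% in both non-CIN lists. At *Gad1* it covered 23.3% and 26.4% in CINs, compared with 27.5% and 28.6% in non-CINs. All 3 astrocyte markers had more H3K27ac covered in non-CINs, of which *Gfap* was also higher there by strength while *Aldh1l1* and *Aqp4* overlapped. Of 4 projection neuron markers, *Emx1* had more H3K27ac covered in non-CINs and overlapped by strength, and *Neurod6* was higher in CINs by strength alone. Of 3 oligodendrocyte lineage markers, *Pdgfra* had more H3K27ac covered in CINs but overlapped by strength, *Olig2* was higher in non-CINs by both measures, and *Olig1* was higher in non-CINs by strength alone. An H3K27ac peak was found at 2 of 3 microglia markers, of which *Cx3cr1* was higher in non-CINs by extent and in CINs by strength, and at 1 of 3 endothelium markers, *Pecam1*, which overlapped by extent and was higher in CINs by strength. More H3K27me3 was covered in CINs at *Neurod6*, *Emx1*, *Gfap*, *Olig1* and *Olig2*, and in non-CINs at *Pdgfra*, against 7.34% and 11.1% of coding genes. Of the microglia and endothelium markers, *Cx3cr1*, *Cldn5* and *Kdr* had H3K27me3 peaks in all 4 lists, with extents that overlapped. By strength, *Kdr* was higher in non-CINs (percentiles 97.1 and 96.6) than in CINs (96.0 and 96.2). The shares of coding genes with more H3K27ac covered in CINs and in non-CINs were 18.1% and 18.0%. Lists held 46040 to 62505 peaks for H3K27ac and 36662 to 45081 for H3K27me3, over 40.8 to 56.3 Mb and 34.5 to 49.8 Mb, and the part that cell mixture plays in the differences above was not tested.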

How the data were processed

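Reads were aligned to mm10 by the authors and broad peaks were called in each sample against its matched input, without model building or local background. The submitters' processing notes name BWA 0.7.15 and MACS2 2.2.7, and the study's methods name another MACS2 version. The deposited lists give a score scaled by the peak caller from the *q* value, fold enrichment as a ratio to input, the −log10 *p* value and the −log10 *q* value, all computed by the authors. Only positions, fold enrichment (as a percentile within its list) and −log10 *q* were used. Read depth was not analysed here, and where a window holds no peak, the caller reported none. The authors treated replicates as separate samples. The *p* and *q* values of a peak measure enrichment over input within 1 sample, and not the spread between replicates. The permutation test compares 2 lists with 2 and gives no *p* below 0.333.

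Covered bp were computed for 21938 protein-coding genes (GENCODE vM21 basic), and those with a peak of a mark in any list formed the background. For population-only regions, peaks 500 bp or less apart were merged. The 8 members and all lists were chosen with earlier results of these data known. The named genes are all members, fixed lists of other *Sox*, POU, target and marker genes, every population-only region within 200 kb, and for each member the 2 genes most like it, some of which are not reported here. Sequences were printed for the region of each member with the highest lower percentile. Calculations ran in Python 3.11.15 (pysam 0.24.0, NumPy 2.4.6, SciPy 1.17.1) with figures by matplotlib 3.10.9, and interval operations were tested on simulated data against bedtools 2.31.1. Alternatives were a −log10 *q* minimum, lists of equal size, other windows, merging, overlaps and distances, scaling to list length, single replicates and a replicate block. The strength of the strongest peak as the basis of the counts, and a crossed block, were chosen after seeing the data. Coverage, differential calling on coverage and expression were not analysed here.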

Additional observations from a re-analysis of the deposited data

How the results depend on the processing

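With a −log10 *q* of at least 4, lists of equal size, other windows, merged peaks or scaling, no difference called at a member changed sign. The count of members with more H3K27ac covered in CINs was 4 and became 1 when scaled to list length (*Sox11*) and 2 by strength of the strongest peak. It was 3 within 2 kb of the TSS and with merged peaks, and 5 with the window from 10 kb upstream and with either single replicate. For non-CINs it was 1 and became 3 by strength, and 1 to 2 with single replicates. The count with more H3K27me3 covered in CINs was 2 and became 1 at a −log10 *q* of at least 4 (*Sox21*), with the window from 10 kb upstream (*Sox21*) and by strength (*Sox3*), and 4 with the lists of replicate 2 alone and 2 with those of replicate 1 alone. For non-CINs it was 0 and became 0 and 3 with the same lists. A single replicate compares 1 list with 1 list and has no replicate check. The shares of coding genes given above are for 2 lists against 2 and are no background for these counts.

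The 13 CIN-only regions became 5 within 100 kb, 37 within 500 kb and 21 to 44 with single replicates. The 3 non-CIN-only regions became 9 with an overlap of 50% of both peaks (CIN-only 10), 5 with lists of equal size, 12 within 500 kb and 13 to 16 with single replicates.

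The labels do not say what a shared replicate number marks, so numbers were not taken as pairs for covered bp. Deviations of same-numbered lists correlated at 0.560 for H3K27ac and 0.918 for H3K27me3 across genes, with 2 pairs. With a replicate block the counts were 4 and 1 for H3K27ac and 2 and 0 for H3K27me3, and the shares of coding genes under that rule are not given. Without the block the CIN-only regions numbered 14 and the non-CIN-only regions 4, and with a crossed block 13 and 3. Depth was not analysed, so the limit it sets on a missing peak cannot be given.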

Other observations

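For 7 of the members, the coding genes with the most similar marks were those with the smallest mean absolute difference in percent of window covered over the 8 lists, in percentage points. *Sox14* lay nearest to *Gata2* (0.0430), a transcription factor gene. *Sox1* lay nearest to *Otx1* (12.04) and to *Pou3f3* (15.4), and *Sox21* to *Hes1* (9.93), a Notch effector of progenitors, and *Olig1* (10.2). *Sox4* lay nearest to *Hist1h2af* (2.08) and *Marcks* (2.16), *Sox11* to *Cox20* (1.89) and *Tmem256* (2.12), *Sox12* to *Kdm6b* (0.841) and *Pusl1* (0.912), and *Sox3* to *Ddit4l* (3.81) and *Paqr6* (3.82). Among the members themselves, *Sox4* and *Sox11* were the closest pair, at 3.09 points, and *Sox1* and *Sox2* were 15.8 points apart. These distances are a description over 8 lists in which many genes have no peak.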
